A study of Mus musculus with 9 samples.

Results

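The complement genes described here are 9 of the 18275 genes measured in the mouse hippocampus: C1qa, C1qb, C1qc, C3 and C4b, which encode components, C3ar1 and C5ar1, which encode receptors, and Cd59a and Csmd1, which encode regulators. They were chosen by gene symbol, with earlier results of these data known, and all 9 had a mean value of at least 10 and were tested. Hippocampal RNA was sequenced from adult male mice on a C57BL/6N background, with 1 library per animal, from 4 Nestin;BrafKE/+ mice and 5 Braf+/+ littermates. Nestin;BrafKE/+ mice are heterozygous for a Braf allele encoding K499E, a kinase-activating change, which is transcribed from the Braf locus itself once Nestin-Cre has removed a floxed wild-type cassette. Nestin-Cre acts in neural stem cells, so neurons, astrocytes and oligodendrocytes descend from recombined cells, whereas microglia arise from another lineage. Whether the Braf+/+ mice carried Cre is not given in the labels.

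Complement is a cascade of blood and tissue proteins that tags targets for removal. C1q, built from the products of C1qa, C1qb and C1qc, starts the classical pathway, C4 and then C3 are cleaved and deposited on the target, and the fragments that are released act on the receptors C3aR and C5aR1. In the brain, C1q comes mainly from microglia, C4 is made by astrocytes and other cells, and tagging by C1q and C3 is known from the removal of synapses during development.

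Values are the authors' normalised counts. The study adjusted for batches that are not named in the sources used here, and the values are whole multiples of 1 step per library that are not reads, so the depth behind a value is unknown and the error given is the spread between libraries. Library totals lay between 19550000 and 20090000. The names of the libraries fall into 3 series, which are used as a term in the model: series A comprised Nestin;BrafKE/+ replicate 1 and Braf+/+ replicates 1 to 3, series B comprised Nestin;BrafKE/+ replicates 2 and 3 with Braf+/+ replicate 4, and series C comprised Nestin;BrafKE/+ replicate 4 with Braf+/+ replicate 5. Differences between the genotypes are log2 fold changes from limma on log2(value + 1), Nestin;BrafKE/+ minus Braf+/+, with p-values adjusted over 16196 genes and a threshold of 0.05. Braf itself was lower in Nestin;BrafKE/+ mice, by a log2 fold change of -0.30 ± 0.07 (SE, limma adjusted p = 0.0378), and the table of values per gene cannot tell the alleles apart.

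None of the 9 complement genes passed the threshold (0 of 9, limma), where 2.88% of all genes tested did, 1.52% as higher and 1.36% as lower in Nestin;BrafKE/+ mice. At an unadjusted p under 0.05 there were 4 of 9, with C1qb, C1qc and C4b higher and Cd59a lower in Nestin;BrafKE/+ mice, against 18.5% of all genes, 8.86% higher and 9.61% lower. Without the series term in the model C1qb and C4b passed the threshold (limma adjusted p = 0.0324 and 0.0367), 2 of 9 genes, as did 14.0% of all genes. The values of the genotypes overlapped for all 9 genes, whereas 15.7% of all genes had values that did not overlap. The median log2 fold change of the 9 genes was 0.01, within a range from -0.74 for Cd59a to 0.53 for C4b, beside a median of 0.00 over all genes tested.

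**Figure D1:**
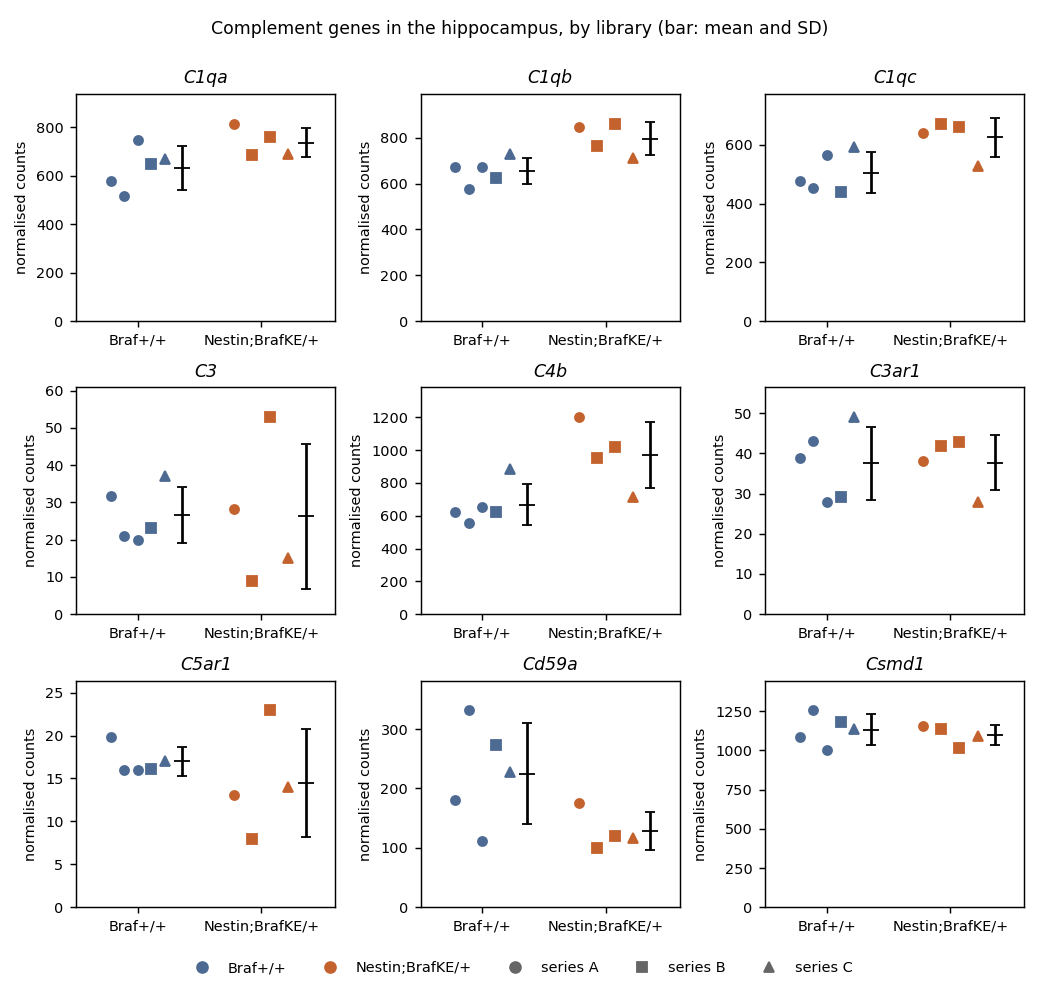
Normalised counts of the 9 complement genes (vertical axes, linear from 0) in each of 5 Braf+/+ and 4 Nestin;BrafKE/+ libraries, with symbols for the series of library names and bars for mean and SD. The genotypes overlap in every panel, and for C1qb, C1qc and C4b 3 of 4 Nestin;BrafKE/+ libraries lie above all Braf+/+ libraries, with replicate 4 of series C below the highest of them.

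In Braf+/+ hippocampus, levels per kilobase of merged exon ranked C1qa first, at 393 ± 55.4 normalised counts per kb (SD, n = 5), followed by C1qc at 177 ± 24.1, C4b at 110.2 ± 20.7, C1qb at 105 ± 9.21, Csmd1 at 59.5 ± 5.06 and Cd59a at 35.8 ± 13.5. C3ar1 at 7.50 ± 1.81, C5ar1 at 6.61 ± 0.653 and C3 at 5.13 ± 1.44 normalised counts per kb formed a low group. The ranges of C4b and C1qb overlapped, as did those of Csmd1 and Cd59a and those of C3ar1, C5ar1 and C3, so these neighbours were not ordered beyond their spread. The length used for C1qb is 6246 bases of merged exon in a gene of 7503 bases, because annotated transcripts differ. The lengths used for C1qc and C1qa are 2860 and 1610 bases. The order of the C1q genes per kb depends on these lengths. Before division by length their Braf+/+ means were 655 ± 57.5 for C1qb, 632 ± 89.2 for C1qa and 506 ± 68.9 normalised counts for C1qc.

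The C1q genes encode the A, B and C chains of the recognition molecule. They lie side by side on the minus strand of chromosome 4 (GRCm39), C1qb at chr4:136606009-136613511, C1qc at chr4:136616466-136620376 and C1qa at chr4:136623223-136626161, within 20153 bases. A predicted gene, Gm69251, overlaps C1qb and C1qc on the opposite strand.

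The C1q promoters are shown because the chain genes neighbour each other and had estimates in the same direction. RefSeq promoter sequences (GRCm38.p6) were found for 6 of the 9 genes and not for C1qa, C4b and Csmd1. The bases before each start are printed 5′ to 3′ on the gene's strand, from chr4:136886201-136886450 for C1qb and chr4:136892915-136893164 for C1qc, both on the minus strand. Capitals mark GGAAGT or its reverse complement, a core sequence bound by ETS transcription factors, the family of the macrophage factor PU.1.
C1qb: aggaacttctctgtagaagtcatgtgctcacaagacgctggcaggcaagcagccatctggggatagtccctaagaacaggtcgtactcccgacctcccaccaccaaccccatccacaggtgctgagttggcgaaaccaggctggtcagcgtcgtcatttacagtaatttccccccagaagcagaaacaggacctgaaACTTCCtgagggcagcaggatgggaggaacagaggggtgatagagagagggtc
C1qc: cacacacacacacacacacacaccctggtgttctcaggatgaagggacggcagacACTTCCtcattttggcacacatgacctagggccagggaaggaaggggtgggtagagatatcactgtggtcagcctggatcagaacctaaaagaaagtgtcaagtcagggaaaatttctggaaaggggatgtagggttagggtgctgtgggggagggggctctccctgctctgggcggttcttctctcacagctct
The match ended 48 bases before the start in C1qb and 190 bases before it in C1qc. C5ar1 held 2 matches, ending 185 and 67 bases before its start. Among the 6 promoters, 3 held GGAAGT on either strand within 250 bases of the start, and 19.7% of the 32851 promoters in the table did. A match of these letters says nothing of binding.

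C1qa measured 814, 686, 759.7 and 688 normalised counts in Nestin;BrafKE/+ replicates 1 to 4 and 577, 515, 748, 649.8 and 671 in Braf+/+ replicates 1 to 5. The means were 737 ± 61.7 (SD, n = 4) and 632 ± 89.2 (n = 5). Braf+/+ replicate 3 lay above 2 of the Nestin;BrafKE/+ libraries, and the log2 fold change of 0.23 (95% interval -0.03 to 0.49) did not pass the threshold, with a limma adjusted p of 0.332. It was 0.10 without Nestin;BrafKE/+ replicate 1, the library with the highest C1qa, and 0.11 with 4 name prefixes in place of the 3 series.

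C1qb measured 848, 765, 862 and 711 normalised counts in the Nestin;BrafKE/+ libraries and 672, 577, 671, 625 and 731 in the Braf+/+ libraries. Replicate 5 of Braf+/+ was the only control above any Nestin;BrafKE/+ library, and the library it exceeded was replicate 4, from the same series. The log2 fold change was 0.28 (95% interval 0.07 to 0.49, limma adjusted p = 0.147). The two-sided exact permutation test gave p = 0.0238 over all assignments of genotype to the libraries and p = 0.0833 over the 24 assignments within series, where the smallest p possible is 0.0417.

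C1qc measured 641, 672, 661 and 529 normalised counts in Nestin;BrafKE/+ and 477, 454, 566, 439 and 592 in Braf+/+ libraries. Nestin;BrafKE/+ replicate 4 was again the exception, lying below Braf+/+ replicates 3 and 5, and the other 3 lay above all controls. Its log2 fold change was 0.31 (95% interval 0.04 to 0.58, limma adjusted p = 0.203). The difference of the genotypes was positive in series A and B and negative in series C for C1qb (log2 differences of 0.41, 0.38 and -0.04) and for C1qc (0.37, 0.60 and -0.16). For C1qa the log2 differences were 0.43, 0.15 and 0.04.

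The proportions of the chains to each other overlapped between the genotypes. The ratio of C1qa to C1qb counts ran from 0.882 to 0.968 in Nestin;BrafKE/+ and from 0.859 to 1.11 in Braf+/+ libraries (two-sided exact permutation test, p = 0.563). The ratio of C1qc to C1qb ran from 0.745 to 0.878 and from 0.703 to 0.844 (exact permutation test, p = 0.698). A difference between the chains was therefore not detected with 9 libraries.

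C4b, at chr17:34947354-34962912 on the minus strand (GRCm39), encodes the main mouse complement C4, which C1s cleaves after C1q has bound. It measured 1202, 952, 1018 and 715 normalised counts in Nestin;BrafKE/+ replicates 1 to 4 and 625, 556, 654, 622 and 883 in Braf+/+ replicates 1 to 5. Series A and B were separated, with all 3 Nestin;BrafKE/+ libraries above all 4 controls, and series C was inverted, with the Braf+/+ library the higher of the pair. The means of 972 ± 201 (SD, n = 4) and 668 ± 125 (n = 5) correspond to the largest estimated increase among the 9 genes, a log2 fold change of 0.53 ± 0.17 (SE) or 1.45-fold, which did not pass the threshold (limma adjusted p = 0.129). Exact permutation tests gave p = 0.0317 over all assignments and p = 0.0833 within series. The log2 differences within series were 0.98, 0.66 and -0.30 for A, B and C.

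The C4b value rested on a few libraries. Omitting Nestin;BrafKE/+ replicate 4 gave a log2 fold change of 0.83 that passed the threshold (limma adjusted p = 0.0044), and omitting Braf+/+ replicate 5 gave 0.83 as well (limma adjusted p = 0.00446). Leaving out either of these leaves 1 library in series C, which the series term then takes up, so both values describe series A and B. Without Nestin;BrafKE/+ replicate 1, the library with the highest C4b, the log2 fold change was 0.25 (limma adjusted p = 0.543). For C1qc, leaving out Braf+/+ replicate 4 gave 0.16 (limma adjusted p = 0.666) and leaving out either series C library gave 0.48 (adjusted p = 0.0534 and 0.0543).

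**Figure D2:**
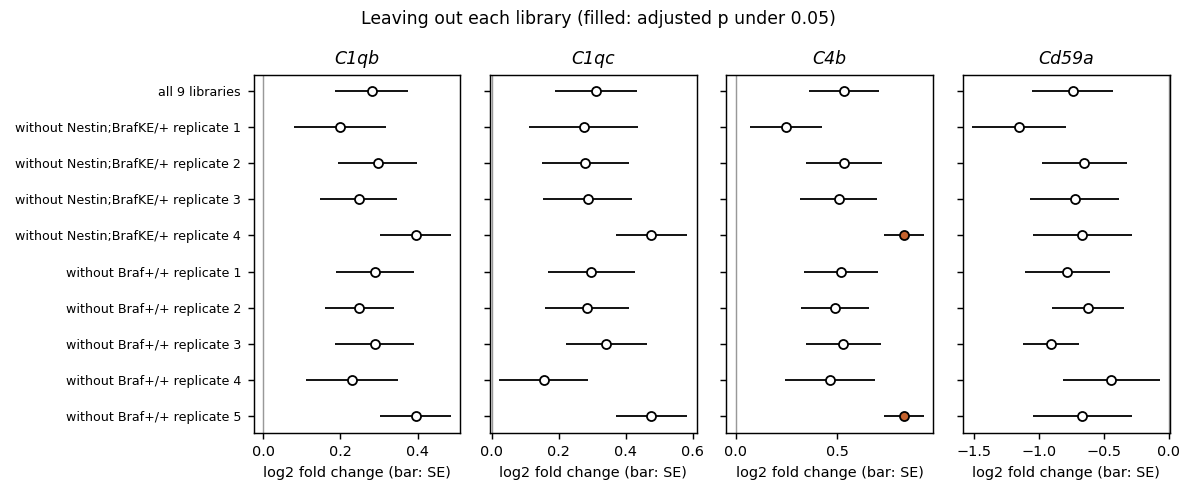
Log2 fold change (horizontal axes, bars are SE) of C1qb, C1qc, C4b and Cd59a from limma with all 9 libraries and with each library left out, filled where the adjusted p was under 0.05. Only C4b has filled points, at 0.83 without either series C library, and its lowest value is 0.25 without Nestin;BrafKE/+ replicate 1.

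C4a, the neighbouring C4 paralog, starts 65156 bases beyond C4b, and reads can be misassigned between such similar genes. C4a was low, with 52.2, 10.9, 47.9 and 23.9 normalised counts in Nestin;BrafKE/+ and 62.6, 28.0, 32.9, 69.3 and 57.0 in Braf+/+ libraries. These ranges overlapped, and the log2 fold change of -0.69 had a limma adjusted p of 0.496. The ratio of C4b to C4a ran from 21.3 to 87.1 in Nestin;BrafKE/+ libraries and from 8.97 to 19.9 in Braf+/+ libraries, without overlap, with exact permutation p = 0.00794 over all assignments (the smallest possible) and 0.0833 within series. The denominator of this ratio is as low as 10.9 counts.

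C3, on the minus strand at chr17:57510964-57535155, is the component on which all complement pathways converge. It was near the lower limit of the values tested, at 28.1, 8.94, 52.9 and 15.0 normalised counts in Nestin;BrafKE/+ and 31.8, 21.0, 19.9, 23.1 and 37.0 in Braf+/+ libraries. The highest and the lowest of all 9 values belonged to Nestin;BrafKE/+ replicates 3 and 2, which are both of series B. The log2 fold change was -0.25 with a 95% interval from -1.33 to 0.82 (limma adjusted p = 0.826), an interval that spans estimates in both directions.

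The receptors were low as well. C3ar1, at chr6:122823393-122833122 on the minus strand, encodes the receptor for the C3a fragment and measured 38.1, 41.7, 42.9 and 27.9 normalised counts in Nestin;BrafKE/+ and 38.8, 43.0, 27.9, 29.1 and 49.0 in Braf+/+ libraries. The values covered the same range, and the log2 fold change was 0.01 (95% interval -0.57 to 0.58, limma adjusted p = 0.990). C5ar1, at chr7:15980668-15993465 on the minus strand, encodes the receptor for C5a and measured 13.1, 7.95, 23.0 and 14.0 in Nestin;BrafKE/+ and 19.9, 16.0, 15.9, 16.1 and 17.0 in Braf+/+ libraries. The controls were close together and the Nestin;BrafKE/+ values lay on both sides of them, with a log2 fold change of -0.29 (95% interval -1.06 to 0.47, limma adjusted p = 0.699). It moved to -0.096 without Nestin;BrafKE/+ replicate 2, the lowest library, and to -0.50 without replicate 3, the highest.

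Cd59a, on the plus strand at chr2:103926132-103947029, encodes a surface protein that blocks assembly of the membrane attack complex. It measured 176, 100.3, 121 and 117 normalised counts in Nestin;BrafKE/+ replicates 1 to 4 and 181, 332, 112, 273 and 227 in Braf+/+ replicates 1 to 5. Among the controls, replicates 2 and 4 were highest, and replicate 3 lay below 3 of the 4 Nestin;BrafKE/+ libraries. The means were 128 ± 32.8 (SD, n = 4) and 225 ± 84.6 (n = 5), a log2 fold change of -0.74 ± 0.31 (SE) or 0.598 times, with a 95% interval from -1.43 to -0.06 and a limma adjusted p of 0.234. Exact permutation tests gave p = 0.0794 over all assignments and p = 0.167 within series, and the log2 differences within series A, B and C were -0.10, -1.30 and -0.96. Omitting Braf+/+ replicate 4 gave -0.44 (limma adjusted p = 0.665), and omitting Nestin;BrafKE/+ replicate 1 gave -1.15 (adjusted p = 0.183). The paralog Cd59b ends 4593 bases before Cd59a and was below the minimum mean for testing.

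Csmd1, at chr8:15942537-17585602 on the minus strand, encodes a large membrane protein with CUB and sushi domains that is expressed by neurons and inhibits the classical pathway. The gene spans 1643066 bases and contains 4 annotated genes on its own strand, whose reads cannot all be told apart from its own. It measured 1157, 1138, 1013 and 1089.8 normalised counts in Nestin;BrafKE/+ and 1083, 1256, 1003, 1181 and 1138 in Braf+/+ libraries, with every Nestin;BrafKE/+ value inside the range of the controls. The log2 fold change was -0.04 with a 95% interval from -0.22 to 0.14 (limma adjusted p = 0.834), the narrowest interval among the 9 genes.

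**Figure D3:**
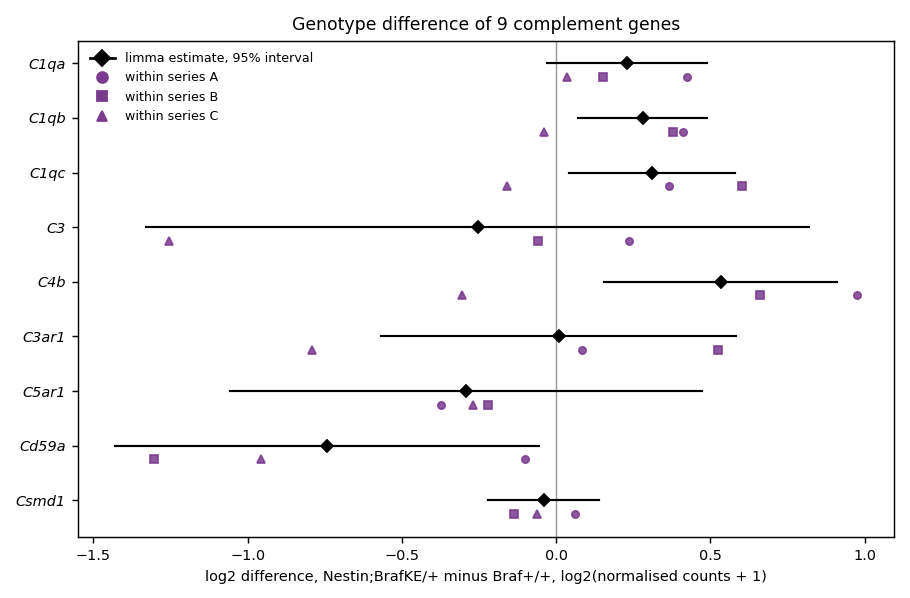
Log2 fold change of each of the 9 complement genes (horizontal axis, Nestin;BrafKE/+ minus Braf+/+) with the limma estimate and its 95% interval as a diamond and line, and the log2 difference within each series of library names as smaller symbols. The intervals of C1qb, C1qc and C4b lie above 0 and that of Cd59a below 0 before adjustment, and the series C symbols of C1qb, C1qc and C4b lie on the other side of 0 from those of series A and B.

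The complement genes were compared across libraries with microglia and astrocyte identity genes only, so the correlations are not shown to be particular to glia. Over the 9 libraries, the median Pearson r with 14 well-expressed microglia identity genes was 0.67 for C1qa, 0.66 for C1qb, 0.62 for C1qc and 0.63 for C4b, and with 14 astrocyte identity genes it was 0.53, 0.72, 0.63 and 0.68, where the median over all genes compared was -0.00 or -0.01. For the receptors C3ar1 and C5ar1 the median r with microglia genes was 0.03 and -0.01, and for Cd59a it was -0.35. These correlations are descriptions, because all libraries share the genotype difference and the same normalisation.

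The microglia identity list (15 of 15 genes tested) had 13 genes higher and 2 lower in Nestin;BrafKE/+ mice, 4 of them at an unadjusted p under 0.05 and 0 past the threshold, with a median log2 fold change of 0.07. Its summed level ran from 8551 to 9459 normalised counts in Nestin;BrafKE/+ and from 7944 to 8684 in Braf+/+ libraries, and its weakest gene, Aif1, averaged 71.4. The difference in mean log2 level was 0.23 in series A, 0.12 in series B and -0.00 in series C. With the microglia level as a covariate the log2 fold change was -0.04 for C1qa, 0.10 for C1qb, 0.12 for C1qc and 0.18 for C4b, and 0 of the 9 genes had an unadjusted p under 0.05. Over all genes that share went from 18.5% to 10.7% with the covariate, and the median SE from 0.10 to 0.14. For C4b the SE was 0.17 both without and with the covariate. It went from 0.12 to 0.10 for C1qa, from 0.09 to 0.10 for C1qb and from 0.12 to 0.14 for C1qc. In bulk tissue more cells of a type and more RNA per cell cannot be told apart, and the part of microglia in the C1q and C4b values was not tested.

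The astrocyte identity list had 12 of 14 genes higher, beside 50.1% of all genes tested. In this list 5 genes rose past the threshold, beside 1.52% of all genes tested: Gfap, Aldoc, S100b, Ntsr2 and Atp1b2. Its mean log2 level did not overlap between the genotypes, lying between 0.11 and 0.18 in Nestin;BrafKE/+ and between -0.15 and -0.08 in Braf+/+ libraries, and its summed level ran from 130794 to 145240 and from 120780 to 134549 normalised counts. The astrocyte level therefore cannot be told apart from the genotype, and with it as a covariate C4b had a log2 fold change of -1.18 with an SE of 0.67 in place of 0.17. In the oligodendrocyte list 10 of 10 genes were higher and 5 rose past the threshold, the myelin and oligodendrocyte genes Mog, Mag, Mobp, Cldn11 and Gjb1. The oligodendrocyte level did not overlap either (0.13 to 0.28 in Nestin;BrafKE/+, -0.35 to 0.003 in Braf+/+), so it cannot be told apart from the genotype. With it as a covariate C4b had a log2 fold change of 0.01 with an SE of 0.33. Nor did the excitatory neuron (0.03 to 0.11, -0.14 to 0.01) and inhibitory neuron levels (0.04 to 0.17, -0.13 to -0.02) overlap. The part of astrocytes, oligodendrocytes or neurons in the C4b values was not tested.

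Choroid plexus genes, which mark the epithelium that makes cerebrospinal fluid, were highest in the libraries with the highest Cd59a. All 8 genes of that list were lower in Nestin;BrafKE/+ mice, 3 at an unadjusted p under 0.05 and 0 past the threshold. Of all genes tested, 18.5% had such an unadjusted p and 2.88% passed the threshold. The list's summed level ran from 1521 to 24722 normalised counts in Nestin;BrafKE/+ and from 4796 to 392375 in Braf+/+ libraries. Braf+/+ replicates 2 and 4, which had the highest Cd59a, also had the highest mean log2 level of the list, at 2.63 and 1.97. With the list's level as a covariate, added after the data were seen, Cd59a had a log2 fold change of -0.32 ± 0.22 (SE, limma adjusted p = 0.528). The Cd59a estimate was -0.12 ± 0.65 with the oligodendrocyte level, also added after the data were seen. With the microglia level it was -0.63 ± 0.43 and with the astrocyte level -1.28 ± 1.58. The part of choroid plexus in the Cd59a values was not tested.

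**Figure D4:**
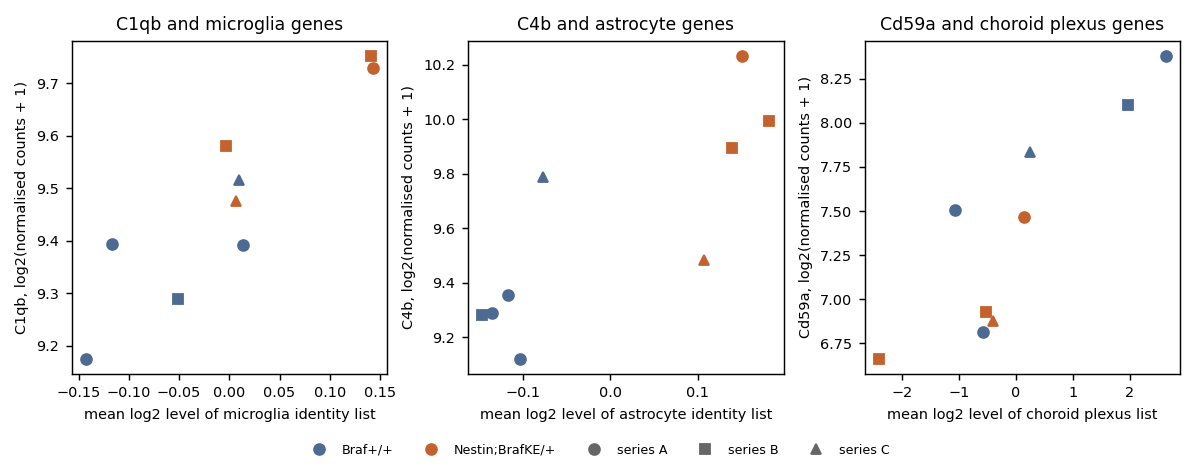
Log2 values of C1qb, C4b and Cd59a in each of the 9 libraries (vertical axes) against the mean log2 level of the microglia identity, astrocyte identity and choroid plexus lists (horizontal axes), with colours for genotype and symbols for series. The astrocyte levels of the genotypes are apart, from 0.11 upwards in Nestin;BrafKE/+ and up to -0.08 in Braf+/+ libraries, and the highest choroid plexus levels of 2.63 and 1.97 belong to the Braf+/+ libraries with the highest Cd59a.

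Other myeloid cells can also make complement. Of the border macrophage list, 7 of 8 genes were tested and all 7 were higher, 3 at an unadjusted p under 0.05 and 0 past the threshold (limma). For this and the lists below, the shares over all genes tested were 18.5% at an unadjusted p under 0.05 and 2.88% past the threshold. Of the monocyte and neutrophil list only Lyz2, a lysozyme gene of myeloid cells, was tested. It rose from 130 ± 16.1 to 217 ± 12.1 normalised counts (log2 fold change 0.74, limma adjusted p = 0.0172). Ccr2 was below the minimum mean for testing and lower in Nestin;BrafKE/+, at 2.25 ± 0.51 against 4.40 ± 2.31 in Braf+/+ libraries. The other 6 of the 8 genes were not among the genes of the table. The part of these myeloid cells in the complement values was not tested. Of the remaining lists, 4 of 10 excitatory neuron genes (Wfs1, Fibcd1 and Itpka higher, Neurod2 lower), 1 of 8 inhibitory neuron genes (Npy), 0 of 8 endothelium genes, 1 of 8 meninges and fibroblast genes (Col1a1) and 0 of 5 blood genes passed the threshold, with 4, 3, 0, 1 and 4 at an unadjusted p under 0.05.

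A wider complement list held 59 genes, of which 45 were in the table and 39 were tested, the 9 genes above included. Of the 39 genes, 25 were higher and 14 lower in Nestin;BrafKE/+ mice, 11 had an unadjusted p under 0.05 and 1 passed the threshold, with a median log2 fold change of 0.05, beside 18.5% and 2.88% of all genes. The count of 1 in 39 is near the share over all genes. Without the 9 genes it was 20 of 30 higher, 7 at an unadjusted p under 0.05 and 1 past the threshold, with a median of 0.06. All 5 tested genes of classical pathway initiation and all 4 of the lectin pathway had positive estimates, with medians of 0.28 and 0.18. C1s2, an initiation gene below the minimum mean for testing, was lower, at 3.25 ± 1.27 normalised counts in Nestin;BrafKE/+ against 7.20 ± 1.94 in Braf+/+ libraries. Among 4 membrane regulators 3 were negative, with a median of -0.19. Of all genes tested, 50.1% had positive estimates.

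Masp1, the gene that passed, encodes MASP-1, a protease that activates the lectin pathway. It lies on the minus strand at chr16:23268167-23339779, with Rtp4 and 2 predicted genes on the opposite strand. Masp1 measured 270.1, 294, 269.6 and 262 normalised counts in Nestin;BrafKE/+ and 204, 198, 207, 191 and 212 in Braf+/+ libraries. The genotypes did not overlap, and the log2 fold change was 0.43 ± 0.10 (SE, limma adjusted p = 0.0408), with positive differences in series A, B and C (0.41, 0.56 and 0.30). The call was lost in each of the 9 fits that left out 1 library, with adjusted p from 0.0589 to 0.201 and the estimate between 0.37 and 0.48.

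Of the other complement genes, C2, the protease that joins C4b in the C3 convertase, had the highest estimate at 0.50 (limma adjusted p = 0.425). Itgb2, the beta chain of the complement receptor CR3, had 0.37 (adjusted p = 0.225) with values that did not overlap. Itgam, the alpha chain of CR3, had -0.08 (limma adjusted p = 0.596). The lowest estimates after C4a were those of C5ar2, another C5a receptor, at -0.51 (limma adjusted p = 0.488) and of Cd55, which dissociates C3 convertases, at -0.37 (adjusted p = 0.173). Of the 39 tested genes 4 had values that did not overlap, where 15.7% of all genes did. Besides Masp1 and Itgb2 these were Sez6 and Sez6l, named after their values were seen, and neither passed the threshold (limma adjusted p = 0.0699 and 0.153). Among genes below the minimum mean, which were not tested and were also named after their values were seen, Cfb ran from 2.99 to 7.95 normalised counts in Nestin;BrafKE/+ and from 9.001 to 15.0 in Braf+/+ libraries, and Fcna from 3.99 to 13.9 and from 0.996 to 3.97.

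**Figure D5:**
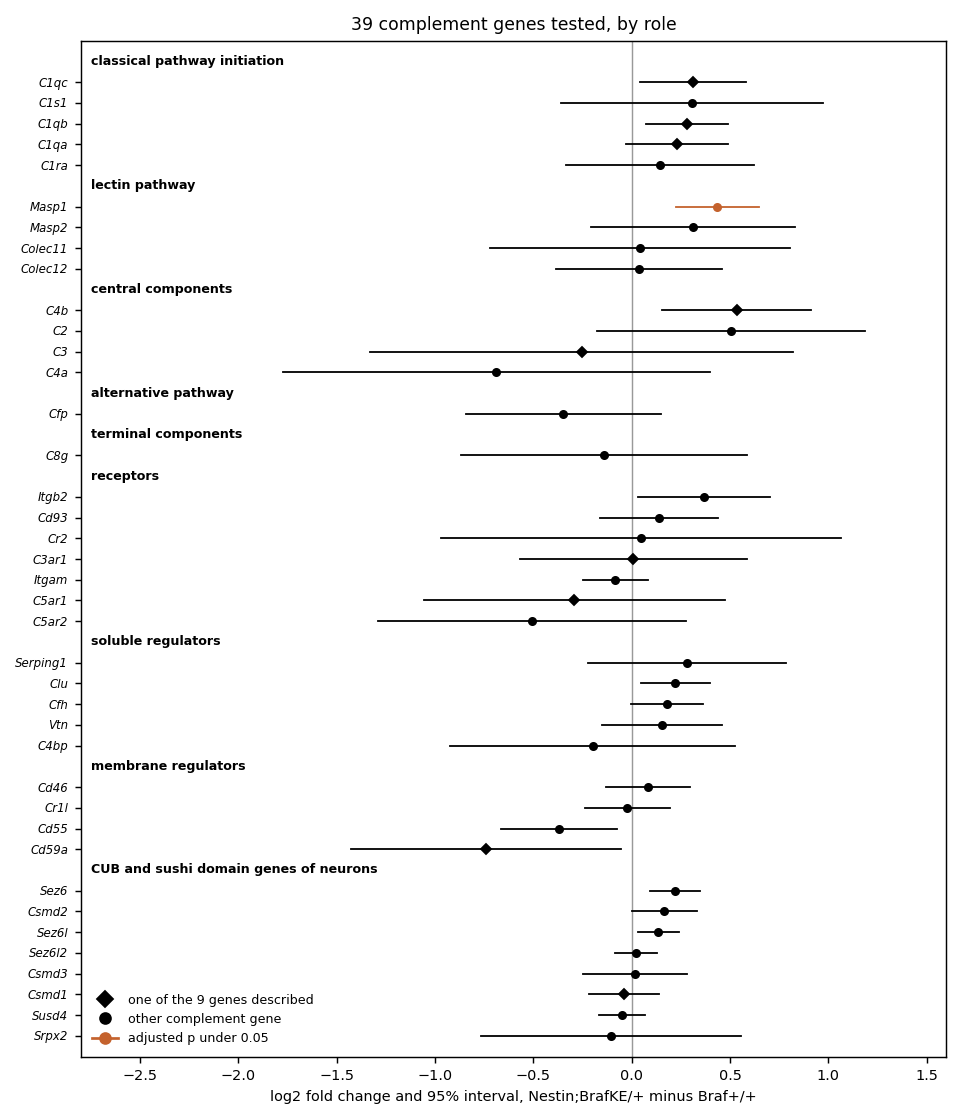
Log2 fold change and 95% interval (horizontal axis, Nestin;BrafKE/+ minus Braf+/+, limma) of the 39 tested complement genes grouped by role, with diamonds for the 9 genes described and colour for an adjusted p under 0.05. Masp1 is the 1 coloured gene, at 0.43, and the intervals of low genes such as C3, C4a and Cr2 are the widest.

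The genes most like each complement gene were taken as the 2 with the highest Pearson r over the 9 libraries among 11881 or 11882 genes with a mean of at least 100. For C4b these were Tafa5 and Ppp1r11 (r = 0.99 for both), and Ppp1r11 was also among those for C1qb, with Srxn1 (r = 0.98 for both). For C1qa they were Cldn10 and Nsmce1 (r = 0.97 for both), and for C1qc Actr1a and Rpl36al (r = 0.99 and 0.98). For Cd59a they were Dpy19l4 and Ntng1 (r = 0.99 for both), and for Csmd1 Plxna2 and Arid5b (r = 0.98 and 0.97). For the low genes they were Zfp110 and Pank2 for C3 (r = 0.98 and 0.95), Bcorl1 and Atp9b for C3ar1 (r = 0.94 for both), and Zim1 and Dcaf10 for C5ar1 (r = 0.99 and 0.96). These are the highest of many correlations over 9 points and are given as a description.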

How the data were processed

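Stranded mRNA libraries of the hippocampus were sequenced. Reads were trimmed by the authors, mapped with STAR on GRCm39 and quantified by Salmon, and DESeq2 was run after an adjustment for batches, which the sources used here do not name. The deposited table holds a signal in normalised counts, and how the adjustment entered it is not stated. In each library 100% of values were whole multiples of a single step (tolerance 0.01). These whole numbers are not sequenced reads, since mt-Co1 was at 491938 in all 9 libraries, so no count model was used and depth is unknown.

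Groups came from the labels. The test across genes used limma (3.58.1, R 4.3.3) with lmFit and trended eBayes, for every gene whose mean reached 10. Its response was log2(value + 1), and its terms were genotype and the series of library names. Two-sided p-values were adjusted by the Benjamini-Hochberg method. Adding 1 understates fold changes of low genes. Single genes also had exact permutation tests over all assignments of genotype to libraries and over the 24 within series. For the level of a list, each gene's log2 values were centred on their mean and averaged per library. The main limma fit was checked on simulated data, and the permutation tests and list levels were not.

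The 9 genes, the wider complement list and the marker lists were chosen with earlier results of these data known. The text names the 9 genes, complement genes past the threshold, the 3 highest and 3 lowest other complement estimates, marker genes past the threshold and the 2 most similar genes each. Further genes, such as C1s2, Ccr2 and Itgam, were named after their values were seen. Positions come from Gencode vM39 (GRCm39), and promoters, limited to 250 bases before the start, from RefSeq (GRCm38.p6). Alternatives were other pseudocounts, filters and scalings, no series term, 4 name prefixes, a replicate block, array weights, robust eBayes, cell-type levels as covariates, and leaving out each library. Figures used Python 3.11.15, pandas 2.3.3 and matplotlib 3.10.9.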

Additional observations from a re-analysis of the deposited data

Results flagged for a closer look

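C5ar1 in Braf+/+ replicate 1 stood apart from the other 4 controls, at 19.9 normalised counts against 15.9 to 17.0. It was 1 of 20 groups of values examined in this way, and chance sets apart about 1 in 20. The C5ar1 values of the 4 Nestin;BrafKE/+ libraries ran from 7.95 to 23.0.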

How the results depend on the processing

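Of the 9 complement genes, 0 passed the threshold with other pseudocounts (0.5 and 8), filters, scalings, 4 name prefixes, array weights, robust eBayes or any covariate. Without the series term 2 passed, C1qb (adjusted p = 0.0324) and C4b (0.0367), of 2260 genes and 8 wider complement genes. With the replicate block 3 passed, C1qb (adjusted p = 0.0210), C1qc (0.0269) and C4b (0.0211), of 1405 genes (8.67% of those tested) and 6 wider complement genes. The replicate numbers did not pair the libraries, since same-numbered libraries correlated by -0.39, -0.08, 0.07 and 0.41 and 1 of 4 correlated best with its own number. Leaving out 1 library gave 0 to 1 of the 9 genes, 42 to 369 of all genes and 0 to 1 of the wider list. All genes past the threshold numbered 165 with 4 prefixes, 258 with array weights and 23 with the microglia level, and the wider list had 0 under each and 0 with the choroid plexus level. With the astrocyte or oligodendrocyte level 0 genes and 0 wider complement genes passed (limma), with 678 and 903 at an unadjusted p under 0.05, and the median SE was 0.50 and 0.22 in place of 0.10.

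Signs turned in log2 fold change for C3ar1 with array weights (-0.064). With the microglia level they turned for C1qa (-0.038), C3ar1 (-0.0086) and Csmd1 (0.044). With the astrocyte level they turned for C1qa (-0.11), C1qb (-0.45), C1qc (-0.86), C4b (-1.18), C3ar1 (-2.19) and Csmd1 (0.058). With the choroid plexus level they turned for C3ar1 (-0.0058) and Csmd1 (0.027), and with the oligodendrocyte level for C1qa (-0.22), C1qc (-0.18), C3ar1 (-0.049) and Csmd1 (0.11). The choroid plexus and oligodendrocyte covariates were added after the data were seen. Leaving out 1 library moved C3 between -0.62 and 0.10, C3ar1 between -0.27 and 0.29 and Csmd1 between -0.10 and 0.011. The cause was not tested. A minimum mean of 50 left C3, C3ar1 and C5ar1 without a value. The low values of C3, C3ar1, C5ar1 and C4a limit what 9 libraries can show.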
